A study of Mus musculus with 16 samples.

Results

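Collagen genes encode the chains that wind into the triple helices of the extracellular matrix. They were taken as every gene symbol in the count files of the form Col, number, a, number, which gave 44 of the 24984 symbols counted. By the known architecture of their proteins they were sorted into 7 subgroups: 11 fibrillar, 8 basement membrane, 6 beaded filament, 9 FACIT (chains that decorate the surface of fibrils), 3 network short-chain and 4 transmembrane genes, and 3 others that include the anchoring fibril gene Col7a1. Bulk RNA sequencing was done on kidney and liver of wild-type female C57BL/6 mice labelled as 24 months old. By the paper that is the age at injection, so the mice were older when tissues were taken. The mice had received AAV8, an adeno-associated virus, by tail vein. It carried a short hairpin RNA against Fos (shFos) or a non-targeting control vector (NT, labelled shNT), and tissues were taken 3 months after injection. The 4 groups, kidney NT, kidney shFos, liver NT and liver shFos, held 4 libraries each, 16 in all. The vector reaches whichever cells the virus infects, and no uninjected or young mice are among these libraries. Counted reads ran from 14194543 in kidney shFos 4 to 18300277 in liver NT 4, so that 3 counts corresponded to between 0.138 and 0.277 CPM (reads of a gene relative to all counted reads, with TMM factors from the 16 libraries).

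Fibrillar collagens such as types I, III and V assemble into the fibres that give interstitial tissue its strength, and they are known as the main deposit in fibrosis. Type IV chains form the sheet-like network of basement membranes. Its Col4a1 and Col4a2 chains are found in nearly every basement membrane, whereas Col4a3, Col4a4 and Col4a5 make the network of the glomerular filter, and defects in them cause Alport syndrome. Fos encodes a subunit of AP-1, a transcription factor that binds the motif TGANTCA.

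Fos, the targeted gene, stood at 4.73, 3.66, 2.99 and 3.83 CPM in kidney NT and at 1.85, 2.95, 2.72 and 1.61 CPM in kidney shFos. All kidney shFos libraries lay below all kidney NT libraries, with a log2 fold change of -0.73 (SE 0.25, adjusted p = 0.0955) in edgeR. In the liver, Fos was at 1.57, 3.34, 5.20 and 4.05 CPM in NT and at 2.31, 2.13, 3.87 and 1.97 CPM in shFos, with overlapping groups and a log2 fold change of -0.47 (SE 0.38, adjusted p = 0.778). Fos thus did not pass the threshold of 0.05 in either tissue. By RT-qPCR the paper reports Fos as lowered in both tissues of the shFos group, and which mice were measured is not stated. The tissue labels matched the markers: the 6 tubule markers, led by Umod or Slc34a1, summed to between 7997 and 12030 CPM in kidney libraries and to 3.32 CPM or less in the liver. The 6 hepatocyte markers, led by Alb in every liver library, summed to between 63130 and 265500 CPM in the liver and to 715 CPM or less in the kidney.

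The gene structures set the fibrillar genes apart from the type IV genes. Triple-helical protein has glycine (codon GGN) at 1 of each 3 positions in a fixed register. In the GENCODE M21 models (mm10), the longest unbroken run of GGN in that register was 338 repeats in Col1a1, 339 in Col1a2 and 344 in Col3a1. It was 40 in Col4a1, 66 in Col4a2 and 39 in Col4a3, whose helices are interrupted many times. The fibrillar genes are also built from exons of 54 bases, which hold exactly 6 Gly-X-Y triplets: such exons made up 41.2% of the coding exons of Col1a1 and 47.1% of those of Col3a1. They made up 3.85% in both Col4a1 and Col4a3, 17.4% in the FACIT gene Col16a1 and 0.418% of 191269 coding exons in other genes. The trait is not confined to fibrillar genes, since some FACIT genes reach similar shares, such as Col22a1 with 44.4% and Col9a1 with 36.8%. The following 54-base exons of the genes that the results below turn on are shown so that the shared repeat can be seen, with capitals for the GGN codon that opens each triplet and not for any other GGN codon. They are coding exon 8 of 51 of Col1a1 (chr11:94939904-94939957, plus strand), exon 8 of 52 of Col1a2 (chr6:4515481-4515534, plus strand), exon 6 of 51 of Col3a1 (chr1:45325360-45325413, plus strand), exon 7 of 52 of Col4a1 (chr8:11245211-11245264, minus strand), exon 7 of 52 of Col4a3 (chr1:82651254-82651307, plus strand) and exon 33 of 69 of Col16a1 (chr4:130067219-130067272, plus strand).
Col1a1: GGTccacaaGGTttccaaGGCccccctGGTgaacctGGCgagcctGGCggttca
Col1a2: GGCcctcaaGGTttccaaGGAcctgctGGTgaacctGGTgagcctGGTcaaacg
Col3a1: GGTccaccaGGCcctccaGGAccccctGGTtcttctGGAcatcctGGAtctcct
Col4a1: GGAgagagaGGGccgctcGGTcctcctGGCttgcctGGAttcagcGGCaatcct
Col4a3: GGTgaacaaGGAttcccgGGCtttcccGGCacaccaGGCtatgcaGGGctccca
Col16a1: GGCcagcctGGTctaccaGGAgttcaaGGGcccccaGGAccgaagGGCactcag

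Before the comparisons, a few libraries stood apart. NT 4 had the least fibrillar collagen RNA of its group in both tissues. Summed over the 11 fibrillar genes, the kidney NT libraries held 517, 544, 497 and 174 CPM and the liver NT libraries 135, 169, 163 and 99.0 CPM. Col1a1, a chain of type I collagen, was at 10.03 CPM in kidney NT 4 against 60.8 to 77.9 CPM in the other kidney NT libraries. Kidney NT 4 was the lowest of its group for 21 of 33 tested collagen genes and the highest for 8. Liver NT 4 was the lowest for 13 of 26 and the highest for 6. Other genes, chosen after their values were seen, also set these libraries apart. In liver NT 4 the acute-phase genes Saa1 and Lcn2 stood at 11130 and 8705 CPM, against at most 555 and 1046 CPM in the other liver libraries. The hepatocyte markers summed to 63130 CPM in liver NT 4 and to at least 159600 CPM in the other liver libraries. The cell cycle gene Mki67 was at 0.84 CPM in kidney NT 4 and between 4.75 and 14.3 CPM in the other kidney libraries, and the 5 lymphocyte markers summed to 8.49 CPM there and to at least 75.4 CPM in the others. Among the treated kidneys, shFos 1 lay apart from the other 3 on several collagen genes and on the podocyte markers described below, with values like those of the NT kidneys. In the liver, shFos 3 was the highest of its group for 16 of 26 tested collagen genes. What sets these libraries apart, and whether their labels are right, was not tested, so the results that rest on them are given with and without them.

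**Figure D1:**
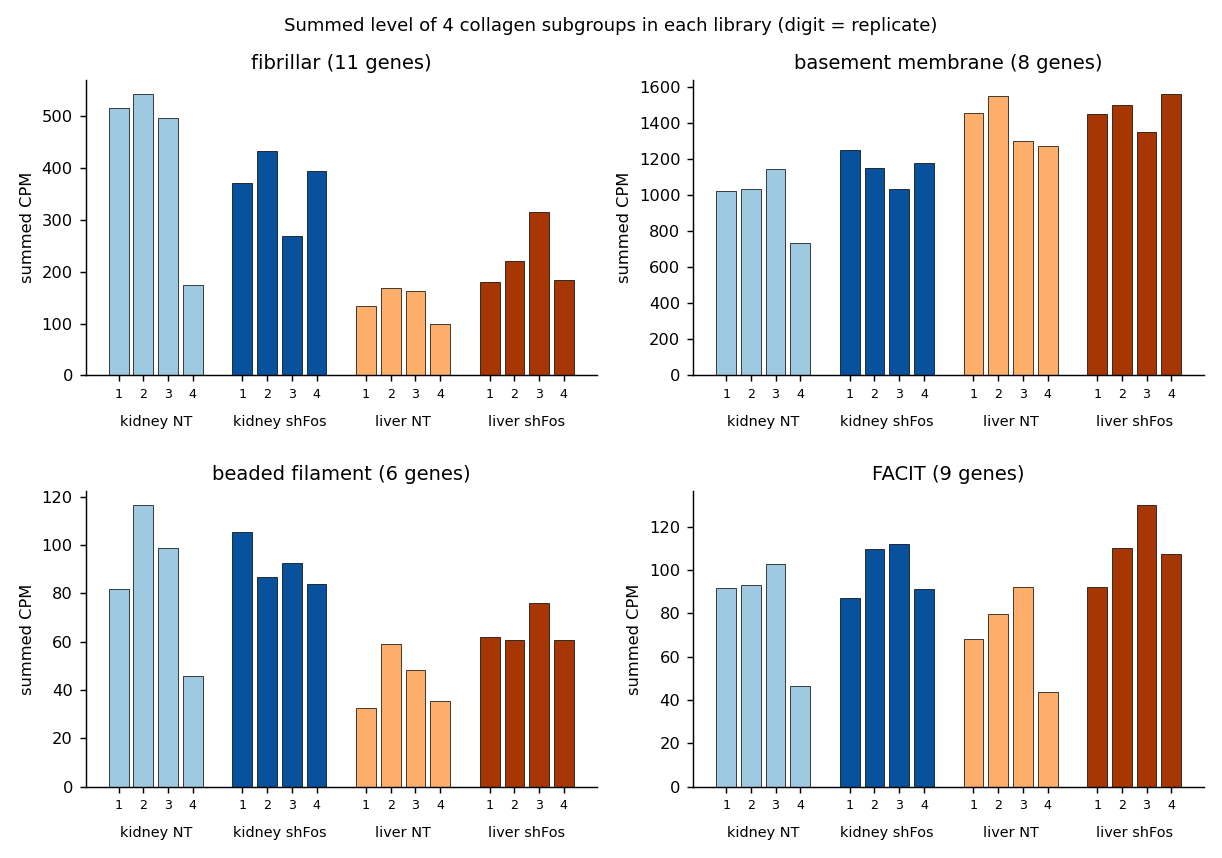
Summed CPM of the fibrillar, basement membrane, beaded filament and FACIT genes in each of the 16 libraries, 1 bar per library with its replicate number. Fibrillar RNA was lowest in NT 4 of each tissue (174 CPM in the kidney and 99.0 CPM in the liver).

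In control mice most collagen genes differed in level between kidney and liver, as did most genes. The question was which collagen genes differ in level between the organs, kidney NT against liver NT, in a fit of all 16 libraries. Of the 44 genes 34 passed the filter on low counts. Of these, 24 differed at adjusted p under 0.05: 21 were higher in the kidney and 3 in the liver. Of the 21, Col4a6, Col6a5, Col8a2, Col17a1 and Col26a1 did not pass the filter in the liver alone, so they entered the test through their kidney counts and could hardly have come out higher in the liver. Among the 26 collagen genes that pass in each tissue alone, a restriction added after the data were seen, 16 were higher in kidney and 3 in liver, with a median of 1.39. For all 12727 such genes 61% differed, 3511 higher in kidney and 4254 in liver, and the median was -0.07. In this fit 9976 of 15421 genes (64.7%) differed, 5312 (34.4%) higher in the kidney and 4664 (30.2%) higher in the liver. The median log2 difference, kidney over liver, was 1.69 for the collagen genes and 0.05 for all genes tested. With upper-quartile scaling the median of all genes moved to 0.21, and with a correction for GC content to -0.11, when the collagen genes had medians of 1.86 and 1.33. Between the shFos libraries of the tissues the collagen median was 0.89, with 18 genes higher on the kidney side and 5 on the liver side, against 65.9% of all genes called. The 10 genes outside the fit had at most 33 counts in any library, and all reads of a gene are counted whether they come from few cells or many: in bulk tissue, fewer cells of a type and less RNA per cell cannot be told apart.

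Among the differences with many counts on the kidney side, the widest lay in the glomerular type IV chains. Col4a4 was at 114, 104, 116 and 122 CPM in kidney NT and at 1.29, 0.895, 0.951 and 0.150 CPM in liver NT. The value in liver NT 4 is below its floor of 3 counts, 0.225 CPM. In all of liver NT there were 40 counts of Col4a4. Col4a3, its neighbour, was at 271, 221, 286 and 195 CPM in kidney NT and at 5.26, 3.99, 1.98 and 1.72 CPM in liver NT. Every kidney library was far above every liver library for both genes. The log2 differences were 7.13 (SE 0.33, adjusted p = 3.50e-11) for Col4a4 and 6.25 (SE 0.40, adjusted p = 1.89e-09) for Col4a3. Col4a5, which completes the glomerular trimer, had a log2 difference of 3.58 (SE 0.31, adjusted p = 5.34e-08), and Col4a6, a chain of smooth muscle and duct basement membranes, one of 2.97 (SE 0.51, adjusted p = 7.92e-05). The widespread chains Col4a2 and Col4a1 differed less, by 2.55 (SE 0.20, adjusted p = 1.21e-08) and 2.09 (SE 0.29, adjusted p = 1.20e-05). These 6 genes were higher in 4 of 4 kidney NT libraries than in any liver NT library. For Col4a6 this carries little weight, since it did not pass the filter in the liver alone and entered the test through its kidney counts.

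The type IV genes lie in head-to-head pairs, and Col4a3 and Col4a4 start 71 bases apart. The stretch between their starts, chr1:82586850-82586920 (minus strand, RefSeq GRCm38.p6), is shown because it lies directly upstream of both genes. It is printed from the Col4a3 side to the Col4a4 side, its GC content is 69.0%, and capitals mark its 2 CG pairs.
Col4a3 to Col4a4: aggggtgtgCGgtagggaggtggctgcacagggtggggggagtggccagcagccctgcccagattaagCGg

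Col18a1 went the other way. This gene encodes the basement membrane chain from which endostatin is released. It was at 1358, 1441, 1175 and 1144 CPM in liver NT and at 219.7, 231, 234 and 143 CPM in kidney NT. The liver libraries were all above the kidney libraries, and the log2 difference was -2.63 (SE 0.18, adjusted p = 3.30e-09). Per length of the chosen transcript, Col18a1 was the most abundant collagen gene in all 4 groups, at 267 ± 29.9 RPKM (CPM divided by transcript length in kilobases, SD, n = 4) in liver NT and 43.2 ± 8.96 RPKM in kidney NT. It made up 80.5% ± 2.60 of all collagen RPKM in liver NT but 17.1% ± 1.21 in kidney NT (SD, n = 4). With the summed exonic length of each gene, tried after the values were seen, Col18a1 ranked first in 3 of 4 groups: in kidney shFos it stood at 31.5 CPM per kilobase, below Col4a1 at 36.4. Behind it in liver NT came Col14a1, a FACIT chain, at 9.67 ± 3.80 RPKM, Col4a1 at 7.29 ± 3.32 RPKM and Col3a1 at 6.49 ± 3.38 RPKM, 3 levels that differ by less than their spread. In kidney NT it was followed by Col4a1 at 31.0 ± 9.31 RPKM, Col4a3 at 28.4 ± 5.004 RPKM and Col5a2, a chain of type V collagen, at 23.4 ± 8.44 RPKM, again within their spread.

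**Figure D2:**
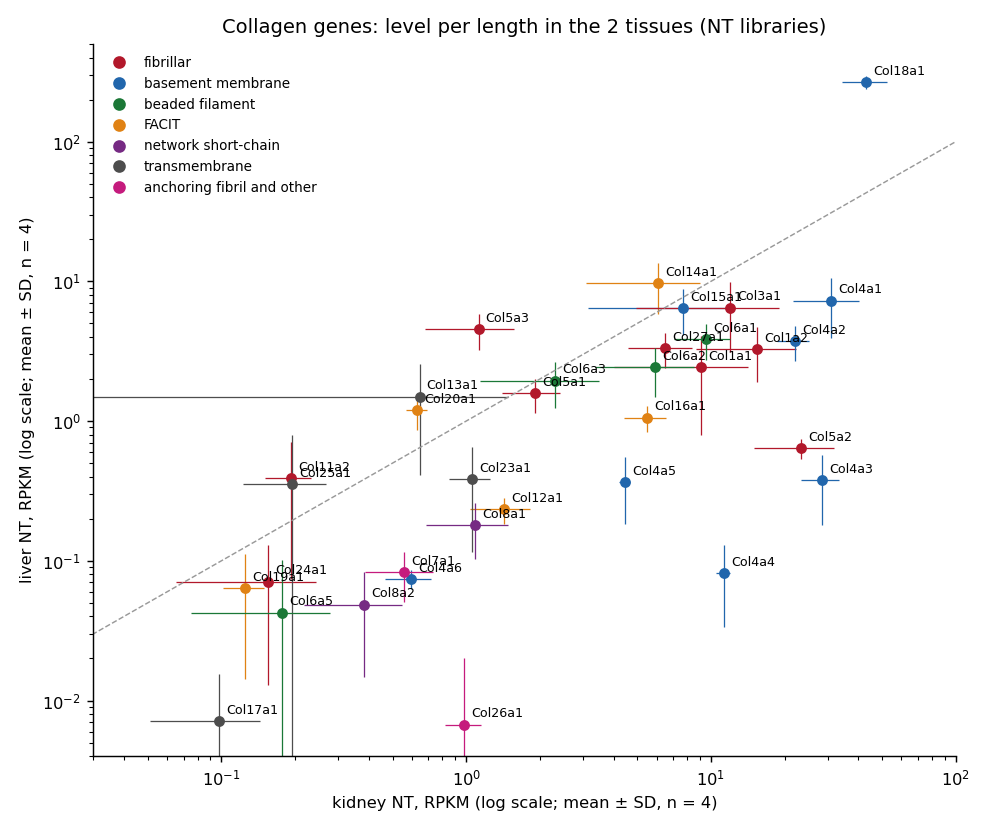
Mean RPKM of the 34 tested collagen genes in liver NT (vertical) against kidney NT (horizontal), both on log axes, with SD bars over 4 libraries cut at the axis limits and a dashed line of equal level. Col18a1 lies above the line at 267 against 43.2 RPKM, and Col4a4 lies far below it at 0.0813 against 11.3 RPKM.

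Fibrillar genes made up 26.2% ± 6.26 of collagen RPKM in kidney NT and 6.82% ± 1.41 in liver NT (SD, n = 4), and basement membrane genes 59.2% ± 5.91 and 86.1% ± 2.37. Of 9 fibrillar genes tested, 4 were higher in the kidney and 1 in the liver, beside 34.4% and 30.2% of all genes, so that 5 of 9 is below the 64.7% called in all. Col27a1, 1 of the 4, was not called without kidney NT 1, kidney NT 2, liver NT 2 or liver NT 3, nor with the GC correction. Col5a2 was at 197, 190.1, 158 and 75.3 CPM in kidney NT and at 3.79, 5.21, 4.39 and 3.67 CPM in liver NT, with no overlap and a log2 difference of 5.18 (SE 0.59, adjusted p = 1.22e-06). Col5a3, another chain of type V collagen, was the fibrillar gene higher in the liver, at 36.5, 19.3, 32.1 and 22.9 CPM against 4.31, 10.2, 7.92 and 5.04 CPM in the kidney. Its log2 difference was -2.01 (SE 0.46, adjusted p = 0.00122). The type I chains had log2 differences of 1.91 (SE 0.53, adjusted p = 0.00507) for Col1a1 and 2.23 (SE 0.34, adjusted p = 3.26e-05) for Col1a2, although kidney NT 4 lay among the liver libraries for Col1a1. Among shFos libraries the Col1a1 difference was 0.85 and did not pass. Col3a1, the type III chain, had a log2 difference of 0.88 (SE 0.52, adjusted p = 0.154). Without liver NT 4 it was 0.58 and did not pass. Without kidney NT 4 it was 1.25 and passed, and in that fit, where 64% of all genes passed, 6 fibrillar genes were higher in the kidney. With the replicate block within treatment it was 0.69 and passed, with 7 fibrillar genes then higher in the kidney. Between the shFos libraries 5 fibrillar genes were above 0 and 4 below, with a median of 0.12 where the NT libraries had 0.95, and 2 passed as higher in kidney and 1, Col5a3, in liver. By sign alone 7 fibrillar genes were above 0 and 2 below (6 and 3 with the GC correction), as were 7 and 1 basement membrane genes (6 and 2) and 4 and 0 beaded filament genes (3 and 1). Among genes that pass the filter in each tissue alone, the counts were 6 and 2, 6 and 1, and 3 and 0. With the GC correction 3 fibrillar genes passed as higher in kidney and 2 in liver, and 67.7% of all genes passed.

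In the other subgroups, the beaded filament genes Col6a1 and Col6a2, of 3 that pass the filter in each tissue alone, and the network gene Col8a1 were higher in the kidney, as were 34.4% of all genes. Col6a5 and Col8a2 were called too, but their liver counts were too low for the other direction to be found. Col6a5 was not called without kidney NT 1, kidney NT 2 or liver NT 2. Of 5 FACIT genes tested, Col12a1 and Col16a1 were higher in the kidney and Col20a1 in the liver. Col16a1 had a log2 difference of 2.37 (SE 0.26, adjusted p = 9.09e-07) and Col20a1 one of -0.93 (SE 0.33, adjusted p = 0.0219). The Col20a1 difference was -0.75 without liver NT 4, -0.88 without kidney NT 1 and -0.78 with upper-quartile scaling, and did not pass in any of these. Col26a1, a gene of unsettled function, was at 2.59, 2.82, 2.12 and 3.17 CPM in kidney NT and had 1 count in all of liver NT against 230 in kidney NT. That is a ratio of 134 after scaling, with an exact 95% interval for counting error of 23.8 to 5320. Of the transmembrane genes, Col23a1 was higher in the kidney, and so was Col17a1, again with few liver counts and no call when a mean of 10 counts was asked for. Col13a1 had a log2 difference of -1.22 (SE 0.65, adjusted p = 0.113), with kidney NT 4 at 5.97 CPM and the other kidney NT libraries below 1 CPM. Without that library the difference was -2.69 and passed, and without liver NT 4 it was -0.58. Same-numbered kidney and liver libraries of NT mice resembled each other, so tissue was also fitted with replicate number as a block within treatment, a setting added after the data were seen. In that fit 24 collagen genes were higher in kidney and 5 in liver, while 10211 of 15421 genes (66.2%) passed in all. Col13a1 passed there at -1.64. With replicate number alone as the block 21 and 4 passed, with 9906 genes (64.2%) in all.

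Chains that share a trimer were compared within each library. The RPKM ratio of Col1a1 to Col1a2 was 0.590, 0.647, 0.612 and 0.307 in kidney NT and 0.527, 0.448, 0.412 and 0.439 in kidney shFos. In the liver it was 0.676, 0.877, 0.801 and 0.345 in NT and 0.563, 0.733, 0.770 and 0.678 in shFos. NT 4 was the lowest library of each tissue, with less Col1a1 per Col1a2 than any other. The ratio of Col4a1 to Col4a2, which make the common type IV trimer together, averaged 1.39 ± 0.254 in kidney NT, 1.66 ± 0.0534 in kidney shFos, 1.92 ± 0.606 in liver NT and 1.77 ± 0.0496 in liver shFos (SD, n = 4). In kidney NT 4 it was 1.01 and in liver NT 4 it was 2.82. The glomerular pair, Col4a3 to Col4a4, stood at 2.53 ± 0.459 in kidney NT and 2.59 ± 0.301 in kidney shFos. A differing mix of transcripts can shift such ratios, since the length used is that of 1 transcript per gene. With the summed exonic length, Col1a1 stood at 8.24 and Col1a2 at 6.65 CPM per kilobase in kidney NT. They were at 2.19 and 1.42 in liver NT, 3.75 and 2.57 in liver shFos, and 6.78 and 7.07 in kidney shFos. Outside kidney shFos, which of these chains is the higher thus depends on the length used.

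In the kidney the comparison of shFos with NT asks which collagen genes differ after Fos was targeted. No collagen gene passed: edgeR called 0 of 33 tested, and it called 0 of 14892 genes in all (0%). At an unadjusted p under 0.05 it found 4 collagen genes, 1 higher (Col8a1) and 3 lower (Col5a3, Col7a1 and Col20a1) in shFos, against 4747 genes (31.9%) in all. That count ran from 2 without NT 2, shFos 3 or shFos 4 to 8 without shFos 1. Then 23.2% (NT 2) and 40.7% (shFos 1) of all genes were below 0.05. The split by direction was 3 higher and 1 lower with the GC correction and without shFos 2. It was 2 and 0 without shFos 4, and 1 and 7 without shFos 1. DESeq2 called 2, Col8a1 higher and Col20a1 lower, and 2732 of 13405 genes (20.4%). In none of the 33 did the groups separate, against 2560 genes (17.2%) in all. The collagen genes split into 18 above and 15 below a log2 fold change of 0, with a median of 0.10 beside 0.00 for all genes. The remaining 11 genes were too low to test, with at most 16 counts in any kidney library.

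Col8a1, which encodes a short-chain collagen of vessel and corneal basement membranes, had the smallest p. It was at 7.83, 5.77, 5.75 and 2.85 CPM in NT and at 6.55, 18.5, 20.4 and 17.3 CPM in shFos. The treated libraries 2, 3 and 4 were above every control, and shFos 1 lay among the controls. Its log2 fold change was 1.504 (SE 0.39, adjusted p = 0.0661), with a 95% interval of 0.61 to 2.40. Without shFos 1 it was 1.73 and passed, and over all alternatives it kept between 1.28 and 1.73 with adjusted p from 0.000195 to 0.192. In the fit of all 16 libraries it was the 1 of 34 collagen genes that passed, against 994 of 15421 genes (6.45%).

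Other genes showed the same split in the opposite direction. Col7a1, the anchoring fibril chain, was at 4.45, 4.83, 3.82 and 7.42 CPM in NT and at 4.75, 0.761, 0.346 and 0.482 CPM in shFos. Col5a3 was at 4.31, 10.2, 7.92 and 5.04 CPM in NT and at 6.596, 2.28, 2.42 and 2.41 CPM in shFos. Col20a1, a FACIT chain, was at 2.73, 3.24, 3.18 and 3.45 CPM in NT and at 2.91, 0.856, 1.48 and 1.07 CPM in shFos. In each, shFos 2, 3 and 4 were below every control while shFos 1 was within the range of the controls. The log2 fold changes were -1.68 (SE 0.73, adjusted p = 0.150) for Col7a1, -1.004 (SE 0.42, adjusted p = 0.137) for Col5a3 and -0.99 (SE 0.36, adjusted p = 0.102) for Col20a1. Col16a1 had the same pattern, at 27.1, 33.9, 31.8 and 21.5 CPM in NT and 28.6, 17.2, 10.3 and 18.9 CPM in shFos, with a log2 fold change of -0.61 (SE 0.27, adjusted p = 0.160).

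**Figure D3:**
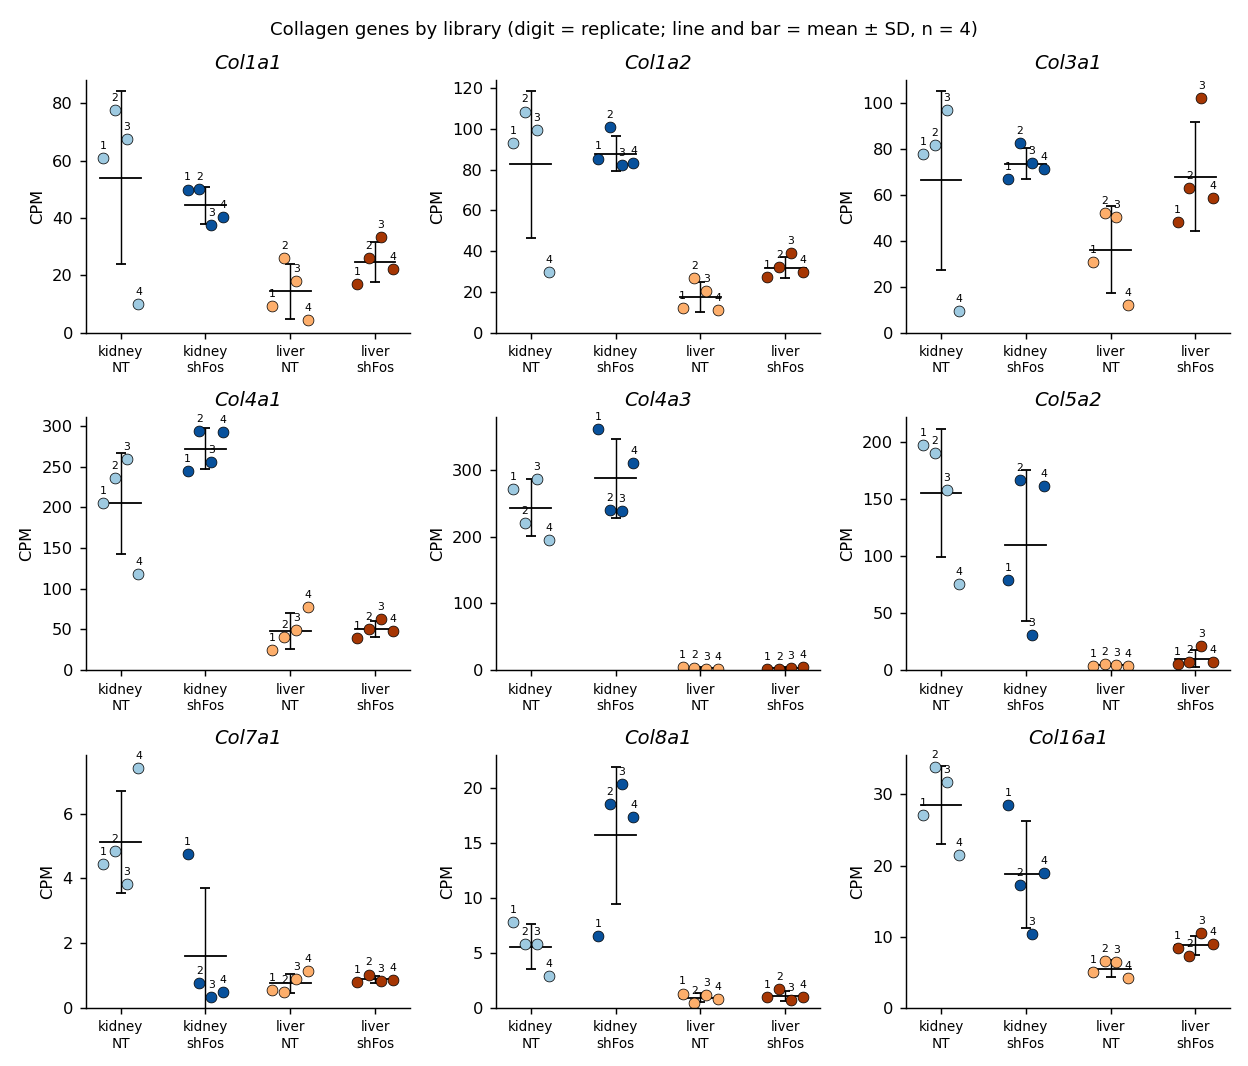
CPM of 9 collagen genes in each library of the 4 groups, with the replicate number above each point and the mean ± SD (n = 4, bars cut at 0). In the kidney, shFos 1 sits with the NT libraries for Col7a1, Col8a1 and Col16a1, and NT 4 sits lowest for Col1a1, Col1a2 and Col3a1.

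Without kidney shFos 1, edgeR called 7 collagen genes. Col8a1 rose, and Col5a3, Col7a1, Col11a2, Col16a1, Col20a1 and Col27a1 fell. In that fit 4126 of 15006 genes (27.5%) passed, against 7 of the 34 collagen genes tested. The log2 fold changes were -3.28 for Col7a1, -1.56 for Col5a3, -1.49 for Col20a1 and -0.91 for Col16a1. Without NT 4 as well, 11 of 34 collagen genes passed, 2 higher and 9 lower in shFos, against 5183 of 14857 genes (34.9%) in all, so the collagen share was near that of all genes. Among the 11 was Col1a1 at -0.72. Leaving out each library was planned, and leaving out both at once was chosen after the values were seen. The median of the collagen genes was then -0.21, and it was -0.15 without NT 4 alone and -0.02 without shFos 1 alone. Fos itself was at 1.85 CPM in shFos 1, within the range of the other treated kidneys, 1.61 to 2.95 CPM.

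For the major fibrillar genes the result depended on single control libraries, most of all on NT 4. Col1a1 was at 60.8, 77.9, 67.7 and 10.03 CPM in kidney NT and at 49.96, 49.97, 37.5 and 40.5 CPM in kidney shFos. Col1a2 was at 93.0, 109, 99.7 and 29.5 CPM in NT and at 85.4, 101, 82.1 and 83.3 CPM in shFos. Col3a1 was at 77.5, 81.5, 96.8 and 9.33 CPM in NT and at 66.8, 82.4, 73.6 and 71.0 CPM in shFos. For Col1a1 all treated libraries lay between NT 4 and the other controls, whereas for Col1a2 and Col3a1 they overlapped with those as well. The log2 fold changes were -0.29 (SE 0.49, adjusted p = 0.711) for Col1a1, 0.08 (SE 0.34, adjusted p = 0.884) for Col1a2 and 0.14 (SE 0.53, adjusted p = 0.873) for Col3a1. Without NT 4 they were -0.64, -0.20 and -0.22, none past the threshold. Col1a1 moved the other way without NT 2 (-0.06) or NT 3 (-0.17), and was at -0.02 with the replicate block. Of the 9 fibrillar genes tested, 7 were below 0 and 2 above, with a median of -0.51. With the GC correction 6 were below 0 and 3 above, with a median of -0.29. Without NT 4 all 9 were below 0, with a median of -0.64.

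All 8 basement membrane genes had a log2 fold change above 0 in the kidney, from 0.10 to 0.41 with a median of 0.22, and none passed. Col4a1 was at 205, 236, 259 and 119 CPM in NT and 245, 294, 256 and 292 CPM in shFos, and Col4a3 at 271, 221, 286 and 195 CPM in NT and 361, 239, 238 and 311 CPM in shFos. The groups overlapped for both, and shFos 1 had the most Col4a3 of all libraries. The log2 fold change was 0.41 (SE 0.22, adjusted p = 0.239) for Col4a1, 0.17 (SE 0.13, adjusted p = 0.376) for Col4a2 and 0.24 (SE 0.18, adjusted p = 0.372) for Col4a3. Without NT 4 these were 0.21, 0.0756 and 0.14. Col4a4, Col4a5 and Col4a6 were at 0.20, 0.28 and 0.27. Without shFos 1 Col4a3, Col4a4 and Col4a5 were at 0.0832, 0.0749 and 0.0867. Without shFos 1 the median was 0.08, with 1 of the 8, Col4a6, below 0 at -0.48. Without NT 4 it was 0.18, with 2 of 8 below 0, and Col18a1 was then at -0.05. With the GC correction the median rose to 0.32 with all 8 above 0, and Col4a1 was at 0.61 and Col4a2 at 0.43. Of the remaining subgroups, 3 of 5 FACIT genes were above 0 (2 of 5 without NT 4), 3 of 4 beaded filament genes (4 with the GC correction, 0 without NT 4) and 1 of 3 transmembrane genes (2 with the GC correction, 2 of 4 without NT 4), and none passed. Col13a1 was at -1.05 with all libraries and at 0.40 without NT 4.

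**Figure D4:**
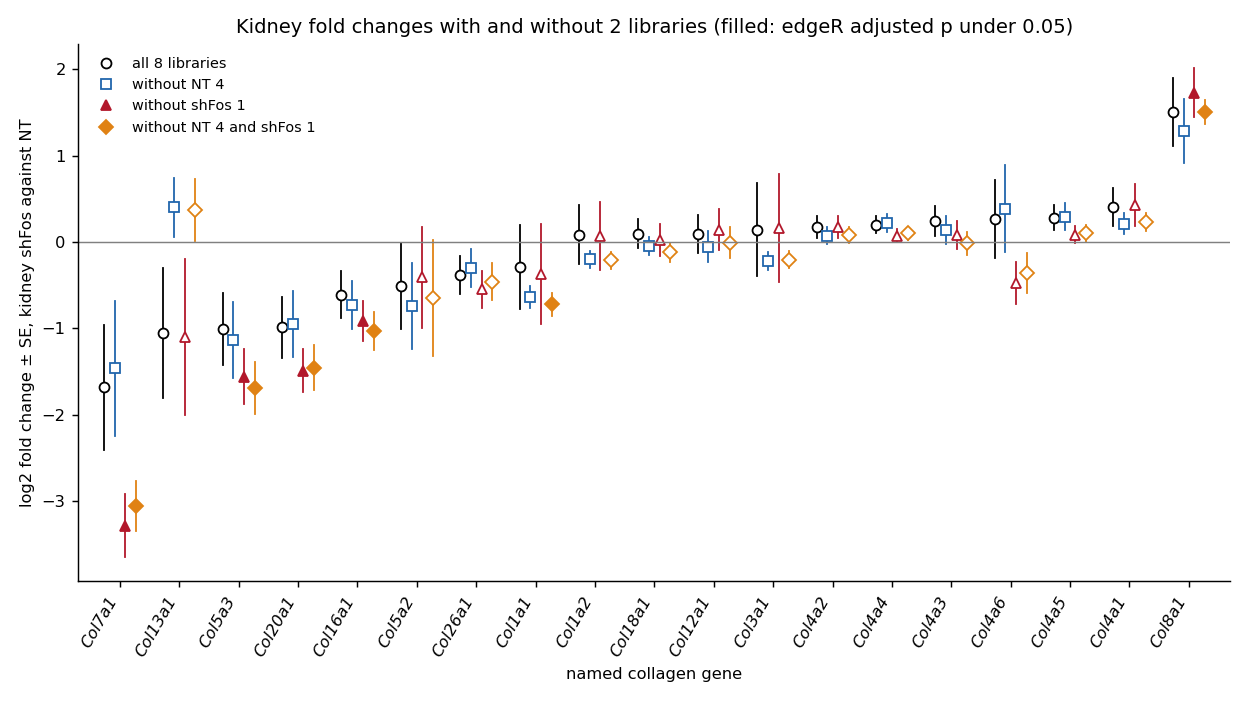
Log2 fold change ± SE of the 19 named collagen genes in the kidney, shFos against NT, with all 8 libraries and without NT 4, shFos 1 or both; filled symbols passed an edgeR adjusted p of 0.05. Col7a1 moves from -1.68 to -3.28 without shFos 1, and Col13a1 changes sign without NT 4.

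Cell type markers were read in the same kidney libraries. The 6 podocyte markers, led by Podxl and none at 0, summed to 360.4, 313, 274 and 252 CPM in NT and to 317, 604, 628 and 561 CPM in shFos. All 6 were above 0 in log2 fold change with a median of 0.87; edgeR called 0, and 6 had an unadjusted p under 0.05 (31.9% of all genes did) and passed in DESeq2 (20.4% did). Again shFos 2, 3 and 4 stood above the controls and shFos 1 among them. The 8 fibroblast and stellate markers, led by Pdgfrb, summed to 163, 182, 175 and 103 CPM in NT and to 161, 164, 162 and 138 CPM in shFos, lowest in NT 4. The 5 smooth muscle and myofibroblast markers, led by Acta2 or Tagln, summed to 164, 180.3, 187 and 139 CPM and 165, 235, 203 and 185 CPM, and the 7 endothelial markers, led by Emcn, to 322, 323, 324 and 273 CPM and 399, 383, 307 and 331 CPM. In edgeR 0 of these 3 lists passed. They had 4 of 8, 5 of 5 and 5 of 7 markers above 0, with 1, 2 and 5 at an unadjusted p under 0.05, and DESeq2 called 1, 2 and 3, beside the same shares of all genes. None of these lists had a marker at 0 in the kidney, and their part in the collagen values was not tested.

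In the liver, collagen genes stood mostly on the high side in treated mice, and none passed. The comparison of liver shFos with liver NT asks the same question in the other organ. In edgeR 0 of 26 tested collagen genes passed, as did 0 of 13144 genes in all (0%). At an unadjusted p under 0.05 there were 7 collagen genes, all higher in shFos, against 886 genes (6.74%) in either direction and 470 (3.58%) that were higher. That count was 3 without shFos 3 (4.48% of all genes), 4 without NT 1 or shFos 2, and 9 without NT 2 (8.51% of all genes). DESeq2 called 0 of the collagen genes and 38 of 12075 genes (0.315%). Of the 26, 22 were above a log2 fold change of 0 and 4 below, with a median of 0.46 beside -0.01 for all genes. The groups did not overlap for 4 collagen genes, Col1a2, Col6a3, Col12a1 and Col16a1, each with the treated libraries on top, against 600 genes (4.56%) in all. The other 18 collagen genes had at most 48 counts in any liver library and were not tested, and Col9a1 had none.

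Col1a2 was at 12.2, 26.9, 20.2 and 11.2 CPM in liver NT and at 27.2, 32.1, 38.9 and 29.6 CPM in liver shFos. Col1a1 was at 9.14, 26.2, 17.9 and 4.27 CPM in NT and at 17.0, 26.1, 33.2 and 22.3 CPM in shFos. Col3a1 was at 30.7, 51.8, 50.1 and 11.8 CPM in NT and at 48.2, 62.8, 102 and 58.5 CPM in shFos. NT 1 and NT 4 were the low libraries in all 3 genes, and shFos 3 the high one. NT 2 and NT 3 were within the treated range for Col1a1 and Col3a1, and all controls were below it for Col1a2. The log2 fold changes were 0.85 (SE 0.28, adjusted p = 0.714) for Col1a2, 0.77 (SE 0.48, adjusted p = 0.752) for Col1a1 and 0.90 (SE 0.43, adjusted p = 0.734) for Col3a1. Without NT 2 alone Col1a1 was at 1.21, and without NT 4 alone Col1a1 was at 0.45 and Col3a1 at 0.59. Without NT 1 and NT 4, a setting added after the data were seen, Col1a2, Col1a1 and Col3a1 were at 0.42, 0.14 and 0.39. The median of the 29 collagen genes then tested was 0.33, with 27 above 0 and 2 below. None was called, and 2 had an unadjusted p under 0.05, against 1172 of 13511 genes (8.67%).

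Among the FACIT genes, Col16a1 was at 4.99, 6.51, 6.44 and 4.12 CPM in NT and at 8.45, 7.27, 10.4 and 8.99 CPM in shFos. Col12a1 was at 1.94, 3.34, 2.71 and 2.77 CPM in NT and at 3.51, 4.03, 6.00 and 3.94 CPM in shFos. All treated libraries lay above all controls in both. Their log2 fold changes were 0.66 (SE 0.21, adjusted p = 0.714) and 0.69 (SE 0.26, adjusted p = 0.715), while Col20a1 was at 0.15. Col5a2 was at 3.79, 5.21, 4.39 and 3.67 CPM in NT and at 5.18, 7.43, 20.9 and 6.76 CPM in shFos, where shFos 3 stood far above the rest and shFos 1 was below NT 2. Its log2 fold change was 1.23 (SE 0.43, adjusted p = 0.714), and without shFos 3 it was 0.57. For Col1a1 the 95% interval ran from -0.33 to 1.87.

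**Figure D5:**
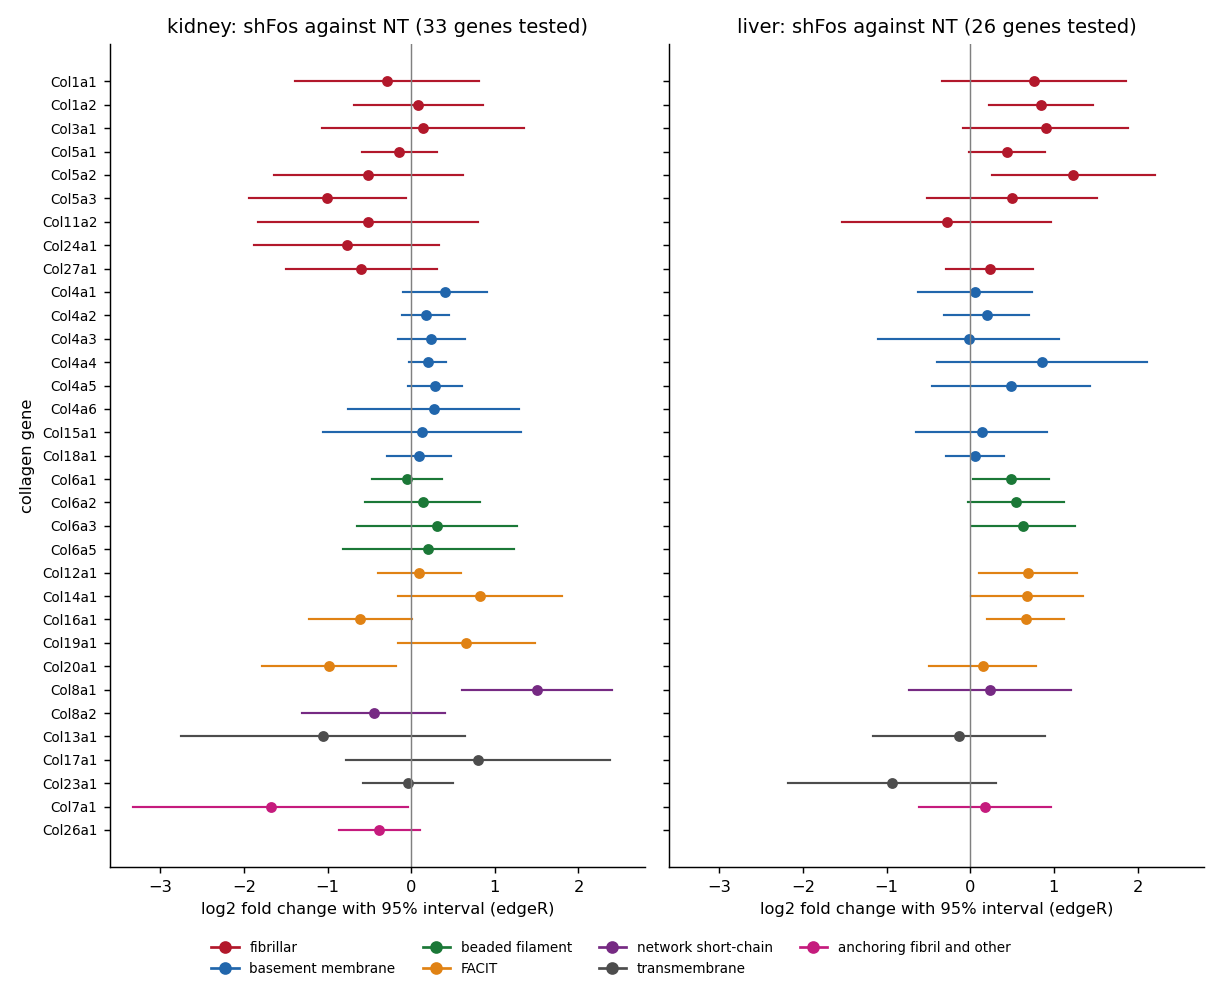
Log2 fold change, shFos against NT, of the collagen genes tested, 33 for kidney and 26 for liver, with 95% intervals and coloured by subgroup; a gene not tested in a tissue has no point. In the liver 22 of 26 points lie right of 0, and in the kidney all 8 basement membrane genes do.

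By subgroup, 7 of 8 fibrillar genes in the liver were above 0 with a median of 0.63. So were 4 of 4 FACIT genes with 0.67 and 3 of 3 beaded filament genes with 0.55. Of the 2 transmembrane genes 0 were above 0, with a median of -0.54 (1 of 2 and -0.39 without NT 4). Basement membrane genes had a median of 0.13, with 6 of 7 above 0 and none at an unadjusted p under 0.05. Without NT 4 their median was 0.23, with 4 of 7 above 0. Col18a1, the dominant collagen of the liver, was at 1341, 1366, 1218 and 1430.0 CPM in shFos beside the NT values above, with overlap and a log2 fold change of 0.05 (SE 0.15, adjusted p = 0.946). Col4a1 was at 0.05 (SE 0.30, adjusted p = 0.975), Col4a2 at 0.20, Col4a3 at -0.02, Col4a4 at 0.86 and Col4a5 at 0.49. The Col4a1 value was -0.16 without NT 1 and 0.36 without NT 4. Without shFos 3 Col4a4 was at 0.46 and Col4a5 at 0.145, and without NT 4 at 0.49 and 0.87. Col4a2 was at 0.0251 without NT 1 and 0.0359 without shFos 3, and Col4a3 ran from -0.38 to 0.31 without each library. The share of fibrillar genes in all collagen RPKM was 6.82% ± 1.41 in liver NT and 9.95% ± 3.001 in liver shFos, and that of Col18a1 was 80.5% ± 2.60 and 75.4% ± 4.17 (SD, n = 4).

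Markers of matrix-producing cells lay on the same side. So did most hepatocyte, endothelial and bile duct markers, with 5 of 6, 5 of 7 and 4 of 5 above 0. Macrophage and lymphocyte markers did not, with 0 of 5 and 2 of 5 above 0. The 8 fibroblast and stellate markers, led by Reln or Cygb with none at 0, summed to 131, 147, 182 and 148 CPM in liver NT and to 204, 199, 225 and 183 CPM in liver shFos. The 5 smooth muscle and myofibroblast markers, led by Tagln or Des, summed to 19.2, 38.4, 41.8 and 37.4 CPM and to 65.7, 70.9, 53.6 and 49.5 CPM; 1 of them was at 0 in shFos 4. The treated libraries were above every control in both sums, but for the fibroblast and stellate sum only narrowly, 182.7 against 181.8 CPM. Of the first list 7 of 8 were above 0 in log2 fold change with a median of 0.34, and of the second 4 of the 4 tested with a median of 0.89. In edgeR 0 of either list passed, with 2 and 3 at an unadjusted p under 0.05, and DESeq2 called 1 and 0, beside 6.74% and 0.315% of all genes. The part of these cells in the collagen values was not tested.

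Whether the treatment effect itself differs between the organs was tested as an interaction, kidney effect minus liver effect. In edgeR 0 of 34 collagen genes passed, as did 0 of 15421 genes in all (0%). At an unadjusted p under 0.05 there were 6, all with the kidney effect the lower, against 2482 genes (16.1%), and DESeq2 called 1, Col16a1, against 341 of 11510 genes (2.96%). The unadjusted count was 2 without kidney NT 2 (13.5% of all genes), kidney shFos 4 or liver shFos 3, 3 with the GC correction, and 11 without kidney NT 4 (16.3% of all genes). Of the 34, 26 were below 0 and 8 above, with a median of -0.48 beside 0.00 for all genes. The median was -0.29 with the GC correction and ran from -0.26 without kidney NT 2 to -0.71 without liver NT 2. Col16a1 had an interaction of -1.28 (SE 0.36, adjusted p = 0.186), Col20a1 of -1.14 (SE 0.48, adjusted p = 0.259) and Col5a2 of -1.74 (SE 0.73, adjusted p = 0.261). Without liver shFos 3 the Col5a2 value was -1.10. All 9 fibrillar genes tested were below 0, with a median of -0.84; with the GC correction 8 were below 0 and 1 above. Basement membrane genes were mixed, 5 below 0 and 3 above (3 and 5 with the GC correction, 4 and 4 with DESeq2, 6 and 2 with upper-quartile scaling). Without kidney shFos 1, edgeR called 4 collagen genes, Col7a1, Col16a1, Col20a1 and Col27a1, all lower, against 1246 of 15601 genes (7.99%). Col16a1 was then at -1.51. The treatment effects of both tissues enter this contrast with their own controls.

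Genes that process and bind collagen were read from 5 lists of 67 genes. In edgeR 0 genes of any list passed in either tissue, and the unadjusted and DESeq2 counts follow for each list. Of all genes 31.9% had an unadjusted p under 0.05 for kidney and 6.74% for liver, and DESeq2 called 20.4% and 0.315%, so most of the kidney counts below are near or under these shares. Of 17 genes tested for chain modification and folding, 11 kidney and 10 liver values were above 0; 4 and 2 had an unadjusted p under 0.05, and DESeq2 called 2 and 0. P3h2, which hydroxylates proline at position 3 and acts on type IV collagen, was at 129, 128, 132 and 116 CPM in kidney NT and at 157, 182, 155 and 178 CPM in kidney shFos. All treated libraries lay above all controls, and the log2 fold change was 0.41 (SE 0.09, adjusted p = 0.0661). P4ha1, a prolyl 4-hydroxylase subunit, had the smallest p of this list in the liver, at 20.1, 15.9, 20.4 and 13.6 CPM in NT and 20.7, 30.03, 23.4 and 23.4 CPM in shFos, with a log2 fold change of 0.47 (SE 0.17, adjusted p = 0.714). Its treated libraries were also above every control.

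For propeptide cleavage and cross-linking, 7 of 13 genes in the kidney and 9 of 11 in the liver were above 0; 3 and 1 had an unadjusted p under 0.05, and DESeq2 called 2 and 0. Loxl4, a cross-linking lysyl oxidase, was at 15.2, 12.1, 19.7 and 5.83 CPM in kidney NT. In kidney shFos it was at 39.7, 27.9, 19.7 and 40.7 CPM. At these digits shFos 3 equalled NT 3, and the other treated libraries lay above all controls. The Loxl4 log2 fold change was 1.28 (SE 0.36, adjusted p = 0.0698). Adamts2, which removes the amino-terminal propeptide of fibrillar procollagens, was at 8.31, 11.3, 10.6 and 9.06 CPM in liver NT. In liver shFos it was at 12.0, 14.2, 12.7 and 12.0 CPM, without overlap. Its log2 fold change was 0.36 (SE 0.15, adjusted p = 0.731).

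Of 9 fibril-binding matrix proteins, 6 kidney and 8 liver values were above 0; 1 and 4 had an unadjusted p under 0.05, and DESeq2 called 1 and 0. Tnxb, the fibril-spacing tenascin X, was the leading gene in both tissues but with opposite signs. It was at 28.6, 27.7, 31.1 and 28.0 CPM in kidney NT and 24.7, 23.2, 19.3 and 14.6 CPM in kidney shFos, and at 25.0, 30.7, 23.9 and 25.8 CPM in liver NT and 33.4, 31.7, 38.9 and 42.5 CPM in liver shFos. The groups separated in both, treated libraries low in the kidney and high in the liver. The kidney log2 fold change was -0.49 (SE 0.15, adjusted p = 0.0732) and the liver one 0.46 (SE 0.13, adjusted p = 0.714). The interaction was -0.97 (SE 0.21, adjusted p = 0.1795) in edgeR, where DESeq2 gave an adjusted p of 0.00854 and all alternatives ran from 0.00782 to 0.324.

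Of the 16 basement membrane partners, the laminins, nidogens and heparan sulfate proteoglycans among them, 11 were above 0 in the kidney and 13 of 15 in the liver. At an unadjusted p under 0.05 there were 7 and 5, and DESeq2 called 4 and 0. Lamc1, the gamma chain of most laminins, was at 45.9, 45.1, 47.2 and 46.3 CPM in kidney NT and 60.3, 61.4, 56.1 and 51.3 CPM in kidney shFos, without overlap. Its log2 fold change was 0.32 (SE 0.07, adjusted p = 0.0661). Lama4, a vascular laminin chain, was at 3.14, 3.17, 3.51 and 2.40 CPM in liver NT and 5.58, 4.74, 6.09 and 5.56 CPM in liver shFos, also without overlap, and its log2 fold change was 0.83 (SE 0.20, adjusted p = 0.712). Of the collagen receptors, 7 of 9 in the kidney and 4 of 8 in the liver were above 0; 2 and 1 had an unadjusted p under 0.05, and DESeq2 called 2 and 0. Itgb1, the beta subunit shared by the collagen-binding integrins, was at 233, 226, 246 and 215 CPM in kidney NT and 276, 339, 319 and 328 CPM in kidney shFos, separated, with a log2 fold change of 0.46 (SE 0.10, adjusted p = 0.0661). Itga2, an alpha subunit of such integrins, was at 0.277, 1.22, 0.805 and 33.3 CPM in liver NT and 1.04, 0.948, 0.822 and 0.342 CPM in liver shFos. Its log2 fold change of -3.48 (SE 1.43, adjusted p = 0.731) rests on the 33.3 CPM of NT 4 and was -0.0002 without it.

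Promoters were read as the 250 bases before each start in RefSeq (GRCm38.p6), which held 38 promoters of 35 of the 44 genes. Entries were missing for Col1a1, Col2a1, Col4a3, Col5a2, Col9a3, Col12a1, Col14a1, Col22a1 and Col26a1. The AP-1 motif TGANTCA, which reads the same on both strands, was in 1 collagen promoter (2.63%) against 6.75% of all 32851 promoters. The other motifs were searched on both strands: TATAAA was in 13.2% of collagen promoters against 12.4% of all, CCAAT in 34.2% against 33.8%, and GGGCGG in 57.9% against 32.7%. A match is a description of letters and not a binding site. The 1 AP-1 match, in Col6a1, starts 90 bases before the RefSeq start, and its 30-base window (chr10:76726117-76726146, minus strand) is shown with the motif in capitals, since Fos was the gene targeted. In the GENCODE M21 models Col6a1 starts at 76726168, so by those models the window lies inside the gene and not upstream of it. The promoters of Col3a1 (chr1:45311288-45311537, plus strand) and Col8a1 (chr16:57754738-57754987, minus strand) are shown for the type III gene and for the gene with the smallest p in the kidney. Capitals mark TATAAA, once in Col3a1, and GGGCGG on either strand, 4 times in Col8a1, and the GC content is 35.2% and 60.8%.
Col6a1 window: atgctgatgctgTGACTCActcagctttga
Col3a1: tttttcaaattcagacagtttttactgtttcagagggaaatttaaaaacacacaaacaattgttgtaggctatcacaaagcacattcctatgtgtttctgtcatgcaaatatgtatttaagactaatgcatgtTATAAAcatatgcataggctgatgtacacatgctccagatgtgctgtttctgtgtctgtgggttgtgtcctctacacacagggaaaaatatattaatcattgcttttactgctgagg
Col8a1: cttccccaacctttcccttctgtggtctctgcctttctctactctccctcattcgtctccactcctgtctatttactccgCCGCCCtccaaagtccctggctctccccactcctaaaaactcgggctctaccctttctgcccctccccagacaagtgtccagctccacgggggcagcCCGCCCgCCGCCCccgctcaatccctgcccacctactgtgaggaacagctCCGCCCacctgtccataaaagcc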

How the data were processed

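The authors deposited raw counts of reads per gene symbol, made with Trimmomatic 0.39, HISAT2 2.2.1 on mm10 and HTSeq 0.12.4 without regard to strand. The annotation release is not stated. The fits used edgeR 4.0.16 under R 4.3.3: low counts were removed by filterByExpr, libraries scaled by TMM and genes tested by robust quasi-likelihood, with Benjamini-Hochberg adjustment over all genes tested. Each tissue was fitted alone, and tissue and interaction in 1 fit of 16 libraries. A call is an adjusted p under 0.05; n = 4 libraries per group. Alternatives were DESeq2 1.42.0, upper-quartile scaling, other filters, a GC correction, the newer quasi-likelihood method, replicate blocks and leaving out each library. Leaving out 2 libraries of a tissue at once, the block within treatment, the filter in each tissue alone and the exonic length were added after the data were seen. RPKM used the length of 1 GENCODE M21 transcript per gene. Counting floors of 3 counts and counting intervals cover counting error only. Members and lists were chosen with earlier results of these data known. Named genes were Col1a1, Col1a2, Col3a1 and the type IV genes, the 4 collagen genes with the smallest p in each tissue, the 3 with the largest tissue difference in each direction, the 3 with the smallest interaction p, and the gene with the smallest p of each pathway list in each tissue. After each group mean was removed, same-numbered kidney and liver libraries of NT mice correlated across genes at 0.162, 0.348, 0.343 and 0.314, and those of shFos mice at 0.052, 0.151, 0.0179 and 0.0956. Whether they come from 1 mouse is not stated, so libraries of the 2 tissues may not be independent.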

Additional observations from a re-analysis of the deposited data

Results flagged for a closer look

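In groups of 4 libraries, a library was singled out when its gap to the nearest other library, divided by the range of the group, exceeded Dixon's 95% critical value. Chance singles out about 1 in 20 groups. Among 108 groups of collagen values 12 were singled out, 5 of them by NT 4.

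Kidney NT 4 had a ratio of 0.841 for Col18a1 (low), 0.925 for Col13a1 (high), 0.874 for the fibrillar sum (low) and 0.846 for the sum of all collagen genes (low). Liver NT 4 had one of 0.846 for Col13a1 (high). Kidney shFos 1 had ratios of 0.837 for Col4a6, 0.967 for Col5a3, 0.906 for Col7a1 and 0.878 for the sum of the anchoring fibril and other genes, and was the high library in each. Liver shFos 3 had ratios of 0.857 for Col5a2 and 0.933 for the sum of the beaded filament genes, again as the high library. For Col26a1 in liver NT the ratio of 1.0 comes from 1 count in NT 3 and none in the others.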

How the results depend on the processing

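Over the alternatives, the 19 named collagen genes tested between tissues gave 463 values of the same direction and call, 5 that lost and 7 that gained the call. Treatment values were counted for 24 of the 28 named genes in kidney and 22 in liver, with genes of the pathway lists only in the tissue where they were chosen. They gave 363 and 353 unchanged, 29 and 0 that gained the call, and 14 and 17 of the other sign. Outside these counts Adamts2, Lama4 and Itga2 in the kidney and Itgb1 in the liver took the other sign in some alternative. For the interaction only Col16a1, Col20a1 and Col5a2 were counted this way, with 68 values unchanged and 3 that gained the call. Of the other named collagen genes, Col4a2, Col4a3, Col4a5, Col13a1, Col18a1 and Col26a1 took the other interaction sign in some alternative, and Col7a1 gained the call in 1.

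The count of 0 collagen genes called in the kidney was 2 with DESeq2, 1 in the fit of all 16 libraries (6.45% of all genes), 11 without NT 4 and shFos 1 (34.9% of all genes), and 0 to 7 without each library. The interaction count of 0 was 1 with DESeq2 and 0 to 4 without each library. Among genes that pass the filter in each tissue alone, 19 collagen genes differed between tissues in place of 24. The kidney median was -0.21 without NT 4 and shFos 1 and -0.15 to 0.16 without each library. With replicate number as a block the counts were 0 in the kidney, 0 in the liver, 25 between tissues (64.2% of all genes) and 0 for the interaction; same-numbered libraries within a tissue did not resemble each other more than others.

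In the kidney without NT 4 and shFos 1, the sign turned for Col1a2 (-0.21), Col3a1 (-0.20), Col4a3 (-0.0153), Col4a6 (-0.36), Col12a1 (-0.0052), Col18a1 (-0.12) and Col13a1 (0.37). Without each kidney library the range was -0.20 to 0.24 for Col1a2, -0.22 to 0.38 for Col3a1, -0.48 to 0.49 for Col4a6, -0.0543 to 0.27 for Col12a1, -0.0496 to 0.16 for Col18a1 and -1.38 to 0.40 for Col13a1. In the liver, Col4a3 was 0.0001 in the fit of all 16 libraries and 0.0836 without NT 1 and NT 4, and Col13a1 was 0.0378 with the replicate block and 0.575 without NT 1 and NT 4. Without each liver library the range was -0.16 to 0.36 for Col4a1, -0.38 to 0.31 for Col4a3, -0.0774 to 0.42 for Col8a1, -0.0869 to 0.31 for Col20a1, -0.0296 to 0.75 for Col5a3, -0.0103 to 0.10 for Col18a1 and -0.39 to 0.49 for Col13a1. The cause was not tested.

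With 4 libraries a group, 1 atypical library can end a call or a direction, as NT 4 and shFos 1 do in the kidney. Counting without strand can credit to Col4a3 those reads of an antisense gene that fall in the 5.65% of Col4a3 exonic bases both share. None of these values measures protein.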

Other observations

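Other marker lists were read as RNA levels, which do not measure cell content. In edgeR 0 genes of any list passed in either tissue. An unadjusted p under 0.05 was found for 31.9% of all kidney genes and 6.74% of liver genes, and DESeq2 called 20.4% and 0.315%. Tubule markers were above 0 in the kidney for 4 of 6 genes, with 2 at an unadjusted p under 0.05 and 2 called by DESeq2. Hepatocyte markers in the liver were above 0 for 5 of 6, with 2 at an unadjusted p under 0.05 and 0 called by DESeq2; in the kidney 2 of 6 were above 0, with 2 at an unadjusted p under 0.05. The 7 endothelial markers were above 0 for 5 in each tissue, with 5 in the kidney and 1 in the liver at an unadjusted p under 0.05, and DESeq2 called 3 and 0. Of bile duct markers 1 of 5 was above 0 in the kidney and 4 of 5 in the liver, led by Spp1, with 1 and 0 at an unadjusted p under 0.05 and 1 and 0 in DESeq2.

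Macrophage markers summed to 241, 548, 1279 and 520.0 CPM in liver NT and 457, 556, 302 and 364 CPM in liver shFos, with all 5 below 0 in log2 fold change and a median of -0.67, and 0 at an unadjusted p under 0.05 or in DESeq2. In the kidney 1 of 4 was above 0. Lymphocyte markers, led by Jchain in the kidney, summed to 133, 75.4, 173 and 8.49 CPM in kidney NT and 133, 209, 142 and 168 CPM in kidney shFos, and 1 of 5 was above 0. In the liver 2 of 5 were above 0, Jchain with an unadjusted p under 0.05, and DESeq2 called 0.

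Markers of tissues that lie next to the kidney varied between libraries, and the source of these reads was not tested. Fat markers, led by Cfd or Fabp4, summed to 238, 153, 268 and 284 CPM in kidney NT and 166, 655, 198 and 94.5 CPM in kidney shFos, highest in shFos 2, and 5 of 5 were above 0 in log2 fold change with 0 at an unadjusted p under 0.05. Adrenal markers summed to 29.1 CPM in shFos 2 and to at most 13.7 CPM in the other kidneys. Urothelium markers summed to 23.4, 18.1, 5.75 and 50.7 CPM in NT and 68.5, 33.3, 1.48 and 4.77 CPM in shFos; 3 of 5 were above 0, with 0 at an unadjusted p under 0.05. Of skeletal muscle markers only Mylpf was tested in the kidney, with a log2 fold change of -0.59 and an unadjusted p under 0.05, and the list summed to 12.0 CPM or less in every library. In the liver 1 gene each of the fat, adrenal, urothelium, skeletal muscle and tubule lists could be tested, and 4 podocyte markers, of which Synpo had an unadjusted p under 0.05. The part of these cells in the collagen values was not tested.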
